A study of Mus musculus with 6 samples.

Results

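The 9 genes *Ppbp*, *Pf4*, *Itga2b*, *Gp9*, *Gp1bb*, *Gp1ba*, *Gp5*, *Gp6* and *Treml1* are used as markers of platelets and of megakaryocytes, the cells that shed platelets. They were chosen by symbol from the 49568 genes of the deposited count table, and all 9 were among the 19199 genes that passed the filter on low counts. Of these, 8 were 4.97 to 12.6 times lower in TNF-Tg than in WT lungs, and 1, *Pf4*, was 3.37 times higher. RNA was measured in whole lungs of 3 TNF-Tg and 3 WT mice, 1 library per mouse, all female on a C57BL/6 background and 4 months old. TNF-Tg mice belong to a single line that carries 1 copy of a human TNF transgene and develops erosive arthritis and pulmonary vascular disease, and the WT mice are their littermates without it. The labels name the sample both lung and primary cells, and the alveolar type 2 cell gene *Sftpc* stood at 286171 to 536883 counts in every lung. Whether blood was flushed from the lungs is not given in the sources used here.

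Platelets are anucleate fragments that circulate in blood and carry RNA made by the megakaryocyte. Megakaryocytes mature in the bone marrow and are also found in lung capillaries. Platelets bind to exposed vessel walls through the GPIb-IX-V complex, a receptor for von Willebrand factor made of the products of *Gp1ba*, *Gp1bb*, *Gp9* and *Gp5*. The collagen receptor GPVI (*Gp6*) then signals activation, and the integrin αIIbβ3 (*Itga2b* with *Itgb3*) binds fibrinogen and links platelets to each other. *Ppbp* (CXCL7) and *Pf4* (CXCL4) encode chemokines stored in the alpha granules, and *Treml1* encodes a receptor kept in the same granules until activation. *Pf4* is also expressed by macrophages. In megakaryocytes these genes are switched on by GATA and ETS family transcription factors.

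Total counts per lung were between 25396923 and 32529408, and the detection floor of 3 counts in 1 lung came to 0.0922 to 0.118 CPM, which are counts scaled to the size of each library. This floor covers counting error only. The gene *Gm42418* took 5.22% of all counts in TNF-Tg replicate 1 and at most 0.274% in any other lung. In WT replicate 1, 0.325% of the counts lay on the squamous keratin genes *Krt4* and *Krt13*, with 8 or fewer counts of each in every other lung. Without replicate 1 of both genotypes, all 9 genes remained differentially expressed in the same direction, with log2 fold changes of 1.69 for *Pf4* and of -3.51 to -2.28 for the other 8.

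*Ppbp* and *Pf4* are neighbours on chromosome 5, on the plus strand and 2371 bases apart. Their promoters are shown because the 2 genes moved in opposite directions, and those of *Gp1ba* and *Gp5* because they fell together and hold the most matches to the GATA letters. Each runs from 250 bases before to 50 bases after the start of the gene, 5′ to 3′ on the gene's strand, from RefSeq on GRCm38.p6, where all 9 genes had an entry. Capitals mark the GATA letters, searched as AGATAA with its variant AGATAG and as TGATAA with its variant TGATAG, and the ETS letters, searched as AGGAAG with its variant CGGAAG, all on both strands, with no overlap between the matches marked here. *Ppbp* lies at chr5:90768268-90768567 and *Pf4* at chr5:90772185-90772484, *Gp1ba* at chr11:70638872-70639171 on the plus strand and *Gp5* at chr16:30310732-30311031 on the minus strand.
Ppbp: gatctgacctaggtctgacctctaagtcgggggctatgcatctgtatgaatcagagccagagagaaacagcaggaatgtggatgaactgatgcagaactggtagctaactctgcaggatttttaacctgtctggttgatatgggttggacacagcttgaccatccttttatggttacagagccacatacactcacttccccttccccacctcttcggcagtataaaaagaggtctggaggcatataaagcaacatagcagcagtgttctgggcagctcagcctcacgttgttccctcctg
Pf4: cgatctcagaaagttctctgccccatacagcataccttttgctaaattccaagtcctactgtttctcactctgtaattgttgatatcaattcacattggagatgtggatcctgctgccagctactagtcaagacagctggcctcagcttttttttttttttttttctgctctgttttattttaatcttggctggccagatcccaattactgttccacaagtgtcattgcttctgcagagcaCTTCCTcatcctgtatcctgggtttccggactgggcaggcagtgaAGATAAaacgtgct
Gp1ba: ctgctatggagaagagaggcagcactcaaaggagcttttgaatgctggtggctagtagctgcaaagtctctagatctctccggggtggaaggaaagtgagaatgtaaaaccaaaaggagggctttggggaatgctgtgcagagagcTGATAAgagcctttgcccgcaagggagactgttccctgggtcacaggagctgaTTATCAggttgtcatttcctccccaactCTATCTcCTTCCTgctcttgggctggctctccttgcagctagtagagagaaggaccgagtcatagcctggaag
Gp5: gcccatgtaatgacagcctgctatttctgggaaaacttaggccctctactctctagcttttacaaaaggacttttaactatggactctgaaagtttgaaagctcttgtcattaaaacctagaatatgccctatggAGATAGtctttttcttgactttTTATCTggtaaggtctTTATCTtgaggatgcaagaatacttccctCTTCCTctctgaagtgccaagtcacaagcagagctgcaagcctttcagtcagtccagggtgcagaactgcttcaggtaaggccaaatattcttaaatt
*Gp1ba* held 3 GATA matches, the nearest 23 bases before the start, and an ETS match 16 bases before it. *Gp5* held 3 GATA matches, the nearest 77 bases before the start, and an ETS match 48 bases before it. *Pf4* held an ETS match 9 bases before the start and a GATA match 37 bases after it, and *Ppbp* held neither. Over the 9 promoters, 5 held a GATA match and 6 an ETS match, and 4 held both. Of 32851 promoters of the same length, 29.8% held the GATA letters, 46.5% the ETS letters and 12.6% both. These matches are letters in a window and say nothing of binding.

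All 9 genes passed the cutoff in edgeR's quasi-likelihood test (adjusted p of 0.05 with Benjamini-Hochberg adjustment over all genes tested), where 47.4% of all genes did. The 8 lower genes compare with 23.4% of all genes called lower, and *Pf4* with 24.0% called higher. All 8 had a log2 fold change of -2 or below, which 3.08% of all genes tested reached with a call, and 7 of them had one of -3 or below, against 0.854%. The median log2 fold change of the 9 genes was -3.14, and that of all genes tested was 0.03. In no gene did the groups overlap, which held with TNF-Tg lower for 28.2% and with TNF-Tg higher for 30.5% of the genes tested. In bulk RNA, fewer cells of a type and less RNA per cell cannot be told apart.

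**Figure D1:**
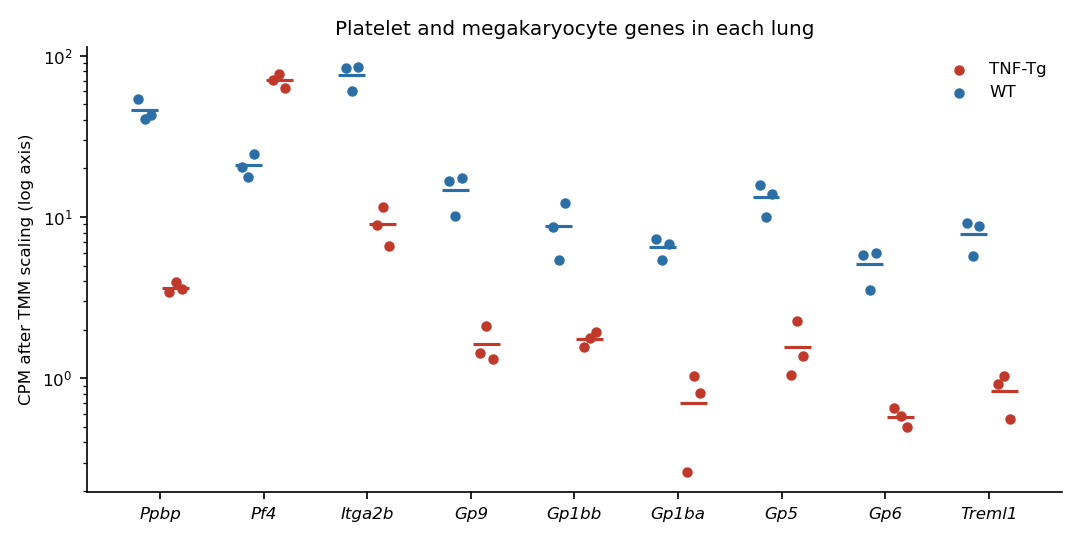
CPM after TMM scaling (log axis) of the 9 platelet and megakaryocyte genes, with 1 point per lung and a bar at the mean of 3 lungs. *Pf4* is the gene whose TNF-Tg points (63.5 to 77.4 CPM) lie above the WT points (17.8 to 24.6 CPM), and in the other 8 genes every TNF-Tg point lies under every WT point.

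Positions of genes are on GRCm38. The chemokine gene *Ppbp* (ENSMUSG00000029372.7, chromosome 5, 90768518 to 90770063) had 78, 115 and 115 counts in the TNF-Tg lungs and 1708, 1277 and 1468 in the WT lungs. After TMM scaling these were 3.64 ± 0.27 CPM (SD, n = 3) against 45.9 ± 7.15 CPM (SD, n = 3), a fall of 12.6 times. Its log2 fold change was -3.65 ± 0.15 SE (edgeR adjusted p = 3.75e-06), the largest fall of the 9 genes, and it ranked 36 among all genes by p-value. *Ppbp* encodes the precursor of the neutrophil attractant that signals through CXCR2.

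*Pf4* (ENSMUSG00000029373.7, chromosome 5, 90772435 to 90773383) had 1624, 2261 and 2032 counts in the TNF-Tg lungs and 643, 562 and 837 in the WT lungs. Every TNF-Tg lung lay above every WT lung, at 70.6 ± 6.95 CPM (SD, n = 3) against 20.9 ± 3.43 CPM (SD, n = 3). The log2 fold change was 1.75 ± 0.14 SE (edgeR adjusted p = 4.32e-05). Set against its neighbour, *Pf4* had 20.8, 19.7 and 17.7 counts for each count of *Ppbp* in the TNF-Tg lungs and 0.376, 0.440 and 0.570 in the WT lungs. On the log2 CPM scale the difference *Pf4* minus *Ppbp* was 4.25 ± 0.12 (SD, n = 3) in TNF-Tg and -1.13 ± 0.30 (SD, n = 3) in WT lungs. The genotypes differed by 5.38 in this measure (exact two-sided permutation test, p = 0.1, the smallest that 3 lungs against 3 allow, and 0.1 after Benjamini-Hochberg adjustment over 3 such comparisons).

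Markers of macrophages rose with *Pf4*, at 8 of 8 genes called higher, against 24.0% of all genes tested, and a median log2 fold change of 3.26. When 1 lung was left out, 7 were called higher, or 8 without TNF-Tg replicate 3. The summed level of the 8 markers was 4756 to 7008 CPM in TNF-Tg and 402 to 455 CPM in WT lungs. None of the 8 was at 0 in any lung. *Marco*, a scavenger receptor of alveolar macrophages, had the highest counts of the list in TNF-Tg lungs and, in 2 of 3 WT lungs, the lowest, and rose most, from 272 to 996 counts in WT to 44197 to 92284 in TNF-Tg lungs (log2 fold change 7.10, edgeR adjusted p = 4.97e-05). The part of macrophages in the *Pf4* counts was not tested.

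*Itga2b* (ENSMUSG00000034664.13, chromosome 11, 102453297 to 102470122 on the minus strand), the αIIb chain of the fibrinogen receptor, had 204, 336 and 211 counts in the TNF-Tg lungs and 2642, 1911 and 2884 in the WT lungs. The groups stood far apart, at 9.0 ± 2.5 CPM (SD, n = 3) against 76.3 ± 13.6 CPM (SD, n = 3). Its log2 fold change was -3.09 ± 0.22 SE (edgeR adjusted p = 2.89e-05). The β3 chain *Itgb3*, which also pairs with the αv chain in other cells, fell from 2146, 1677 and 1867 counts in WT to 702, 1063 and 883 in TNF-Tg lungs (log2 fold change -0.90 ± 0.14 SE, edgeR adjusted p = 0.00122). *Itgb3* minus *Itga2b* was -0.37 ± 0.23 (SD, n = 3) in WT and 1.83 ± 0.20 (SD, n = 3) in TNF-Tg lungs on the log2 CPM scale, a difference of 2.20 (exact two-sided permutation test, p = 0.1, the smallest possible).

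The 4 subunit genes of the von Willebrand factor receptor fell, by 4.97 to 9.28 times on the ratio of mean CPM. *Gp1ba* (ENSMUSG00000050675.7, chromosome 11, 70639122 to 70642036), the chain that binds von Willebrand factor, had 6, 30 and 26 counts in TNF-Tg and 231, 171 and 230 in WT lungs, or 0.700 ± 0.394 and 6.5 ± 0.97 CPM (SD, n = 3 each), with a log2 fold change of -3.17 ± 0.39 SE (edgeR adjusted p = 0.000375). The 6 counts of TNF-Tg replicate 1 have an exact 95% Poisson interval of 2.20 to 13.1 counts, for counting error only, and this was the smallest value of any of the 9 genes. *Gp9* (ENSMUSG00000030054.4, chromosome 6, 87778072 to 87779768), a small chain needed for the complex to reach the surface, had 33, 62 and 42 counts in TNF-Tg and 531, 320 and 591 in WT lungs, or 1.62 ± 0.435 and 14.8 ± 4.01 CPM (SD, n = 3 each), with a log2 fold change of -3.18 ± 0.28 SE (edgeR adjusted p = 7.3e-05). *Gp5* (ENSMUSG00000047953.7, chromosome 16, 30307685 to 30310779 on the minus strand), the loosely held chain that thrombin cleaves, had 24, 66 and 44 counts in TNF-Tg and 499, 316 and 475 in WT lungs, or 1.56 ± 0.627 and 13.3 ± 2.94 CPM (SD, n = 3 each), with a log2 fold change of -3.07 ± 0.30 SE (edgeR adjusted p = 0.000128). In each of these 3 genes the highest TNF-Tg lung stayed under the lowest WT lung.

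*Gp1bb* (ENSMUSG00000050761.4, chromosome 16, 18620317 to 18622403 on the minus strand), the chain bound to GPIbα by disulfide bonds, had 36, 52 and 62 counts in TNF-Tg and 274, 170 and 416 in WT lungs, or 1.76 ± 0.184 and 8.76 ± 3.42 CPM (SD, n = 3 each). Its log2 fold change of -2.31 ± 0.31 SE (edgeR adjusted p = 0.000574) was the smallest fall of the 8 genes. The gene is uncertain, because 91.1% of its exon bases lie in exons of *Sept5* on the same strand in GENCODE M21, and the table does not show how reads in shared bases were counted. *Sept5*, which encodes a septin of the cytoskeleton, had 325 to 434 counts in TNF-Tg and 510 to 688 in WT lungs (log2 fold change -0.43, edgeR adjusted p = 0.035). *Gp1bb* had 1.09, 0.839 and 1.48 counts for each count of *Gp9* in TNF-Tg and 0.516, 0.531 and 0.704 in WT lungs. The corresponding mean for *Gp5* against *Gp9* was 0.946 ± 0.190 (SD, n = 3) in TNF-Tg and 0.910 ± 0.095 (SD, n = 3) in WT lungs, and for *Gp1ba* against *Gp9* it was 0.428 ± 0.224 and 0.453 ± 0.074 (SD, n = 3 each). Differences in these last 2 ratios were smaller than the spread between lungs. None of the other 8 genes shared exon bases with another gene or a 100-base transcript window with another locus.

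The collagen receptor gene *Gp6* (ENSMUSG00000078810.4, chromosome 7, 4363965 to 4397744 on the minus strand) had 15, 17 and 16 counts in TNF-Tg and 183, 112 and 204 in WT lungs, or 0.579 ± 0.077 and 5.11 ± 1.36 CPM (SD, n = 3 each). It fell by 3.14 ± 0.29 SE on the log2 scale (edgeR adjusted p = 8.67e-05), and the 3 TNF-Tg lungs were nearly equal. Its signalling partner *Fcer1g*, the Fc receptor γ chain, which leukocyte Fc receptors use as well, went the other way, from 1397, 1467 and 1998 counts in WT to 7013, 9673 and 8378 in TNF-Tg lungs (log2 fold change 2.59 ± 0.15 SE, edgeR adjusted p = 1.18e-05). *Fcer1g* minus *Gp6* was 3.29 ± 0.38 (SD, n = 3) in WT and 8.86 ± 0.13 (SD, n = 3) in TNF-Tg lungs on the log2 CPM scale, a difference of 5.57 at the smallest possible p (exact two-sided permutation test, p = 0.1).

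*Treml1* (ENSMUSG00000023993.7, chromosome 17, 48359916 to 48367176), which encodes the TREM-like transcript 1 receptor, had 21, 30 and 18 counts in TNF-Tg and 290, 180 and 300 in WT lungs. The groups did not overlap, at 0.835 ± 0.243 CPM (SD, n = 3) against 7.90 ± 1.91 CPM (SD, n = 3). The log2 fold change was -3.25 ± 0.30 SE (edgeR adjusted p = 8.88e-05).

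Levels of different genes were compared per length, as RPKM (CPM divided by the length of all exons in kilobases). In WT lungs *Ppbp* stood highest at 42.4 ± 6.61 RPKM, followed by *Pf4* at 29.0 ± 4.76, *Gp9* at 16.8 ± 4.56 and *Itga2b* at 14.0 ± 2.5 (SD, n = 3 each). *Gp9* and *Itga2b*, next to each other in this order, differed by less than the larger of their 2 SDs between lungs, as did *Gp5* at 6.03 ± 1.34, *Treml1* at 5.63 ± 1.36 and *Gp1bb* at 4.20 ± 1.64 RPKM from one to the next, although in each of these 3 pairs the first gene was the higher in 3 of 3 WT lungs. *Gp1ba* at 2.39 ± 0.36 RPKM came after them, and *Gp6* was lowest at 0.866 ± 0.230 RPKM (SD, n = 3 each). In TNF-Tg lungs *Pf4* stood at 97.9 ± 9.64 RPKM and *Ppbp*, next in order, at 3.36 ± 0.25 RPKM (SD, n = 3 each). *Gp9* (1.84 ± 0.49) and *Itga2b* (1.65 ± 0.45) again differed by less than the SD between lungs, then came *Gp1bb*, *Gp5* and *Treml1* between 0.596 and 0.844 RPKM, and *Gp1ba* (0.258 ± 0.145) and *Gp6* (0.098 ± 0.013) were again lowest. *Pf4* thus held 21.0%, 25.1% and 26.0% of the summed RPKM of the 9 genes in WT lungs and 92.0%, 90.5% and 91.3% in TNF-Tg lungs. The summed CPM of the 9 genes was 199 ± 34.9 in WT and 90.3 ± 10.8 in TNF-Tg lungs, and without *Pf4* it was 178 ± 32.4 and 19.7 ± 3.99 (SD, n = 3 each), a fall of 9.06 times.

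**Figure D2:**
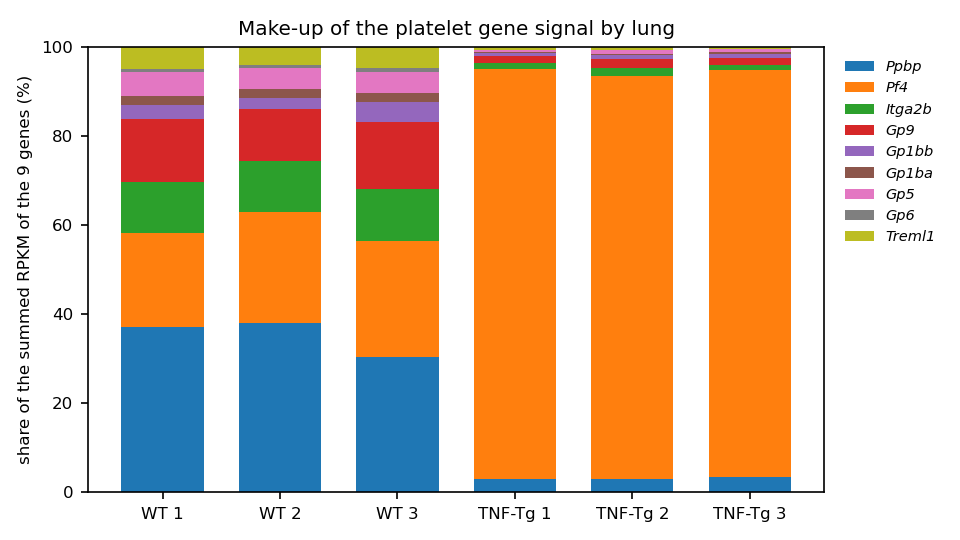
Share of each gene in the summed RPKM of the 9 platelet and megakaryocyte genes, as stacked bars from 0% to 100%, 1 bar per lung. *Pf4* fills 90.5% to 92.0% of the TNF-Tg bars and 21.0% to 26.0% of the WT bars, and *Ppbp* fills 30.4% to 37.9% of the WT bars.

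With *Pf4* left out, the shares of 6 of the other 8 genes overlapped between the genotypes, and those of *Ppbp* and *Gp1bb* did not. Among the 6, *Itga2b* made up 17.5% ± 2.6 of the summed RPKM in TNF-Tg and 15.2% ± 0.8 in WT lungs, *Gp9* 19.5% ± 1.8 and 18.0% ± 2.4, and *Treml1* 6.34% ± 1.45 and 6.06% ± 0.49 (SD, n = 3 each). *Ppbp* was lower in its share, at 36.3% ± 3.7 against 46.3% ± 4.9, and *Gp1bb* higher, at 9.18% ± 1.78 against 4.49% ± 1.36 (SD, n = 3 each). The coefficient of variation between lungs ran from 7.40% (*Ppbp*) to 56.3% (*Gp1ba*) in TNF-Tg and from 14.9% (*Gp1ba*) to 39.0% (*Gp1bb*) in WT lungs. WT replicate 2 was the lowest WT lung in 8 of 8 genes, and TNF-Tg replicate 2 was the highest TNF-Tg lung in 6 of 8. The highest WT lung was replicate 1 in 4 genes and replicate 3 in 4, and the lowest TNF-Tg lung was split in the same way. WT replicate 2 was at the same time the WT lung with the most hemoglobin RNA, at 60527 CPM over the 4 adult globin genes against 35408 and 33304 CPM in the other WT lungs. TNF-Tg replicate 2 likewise had the most hemoglobin RNA of its genotype, at 11835 CPM against 8093 and 10712 CPM, so that the lung with the most hemoglobin was lowest in the platelet genes among WT lungs and mostly highest among TNF-Tg lungs.

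The profile of each gene over the 6 lungs (log2 CPM centred on its mean) was set against the mean profile of the other lower genes, by the root mean square difference. Each gene was ranked against the other genes at a mean log2 CPM of at least 0, 16490 in all with itself, by how near they lay to the mean of the other 7 lower genes. *Itga2b*, *Gp9*, *Gp5* and *Gp6* each ranked 1, and *Treml1* ranked 2. *Ppbp* ranked 29, *Gp1ba* 118 and *Gp1bb* 123. The distance was 0.11 for *Gp9* and 0.57 for *Gp1bb*. The 8 genes were grouped because they fell, so these ranks are a description. Against the mean of all 9 genes, *Pf4* included, the nearest of 16488 other genes over the 6 lungs were *Ramp2* (0.17), *Samd5* (0.18), *Actc1* (0.19), *Megf6* (0.21) and *Gpr182* (0.21). *Ramp2* encodes a partner of the adrenomedullin receptor of endothelial cells and *Actc1* a cardiac actin. Against the mean of the 8 lower genes, a choice made after their values were seen, *Cytl1* and *Enho* came nearest at 0.23 and 0.24, and *Vwf* lay at 0.29.

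Beside the 9 genes, 48 genes of platelets, megakaryocytes and their partners were listed, and 47 were tested. Of these, 36 (76.6%) passed the cutoff, 25 lower and 11 higher, and the median log2 fold change of the 47 was -0.61. Of all genes tested, 47.4% passed the cutoff, 23.4% lower and 24.0% higher, and the 4 lists below compare with these shares. In 11 other receptors, 7 were lower and 1 was higher. The largest changes in this group were those of *Mpig6b*, an inhibitory receptor listed as G6b in the table, with 41 to 49 counts in TNF-Tg and 217 to 431 in WT lungs (log2 fold change -2.58), and *Clec1b*, the podoplanin receptor CLEC-2, with 29 to 108 and 293 to 474 counts (log2 fold change -2.29, edgeR adjusted p = 0.00141). The receptor that was higher was *Itga2* (log2 fold change 1.09, edgeR adjusted p = 0.00761), a collagen-binding chain that epithelial cells carry too. The ADP receptor gene *P2ry12* did not pass the cutoff (log2 fold change 0.49, edgeR adjusted p = 0.156), while *P2ry1*, the other ADP receptor gene of platelets, was lower (log2 fold change -1.32, adjusted p = 0.00452).

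Of 19 genes of granules, cytoskeleton and signalling, 9 were lower and 5 higher. *Tubb1*, the β tubulin of megakaryocytes and platelets, had 66, 122 and 53 counts in TNF-Tg and 1156, 726 and 658 in WT lungs (log2 fold change -3.18 ± 0.36 SE, edgeR adjusted p = 0.000265). *Vwf*, which endothelial cells make as well, had 3214 to 4383 counts in TNF-Tg and 36964 to 42682 in WT lungs (log2 fold change -3.22 ± 0.18 SE, edgeR adjusted p = 9.31e-06). The 5 higher genes were *Fcer1g*, *Tbxas1*, *Fermt3*, *Plek* and *Srgn*, with log2 fold changes of 0.56 to 2.59, and leukocytes express them too. *F13a1*, the factor XIII A chain of platelets and monocytes, had 148 to 562 counts in TNF-Tg and 396 to 487 in WT lungs, and *Selp*, P-selectin of platelets and endothelium, had 122 to 204 and 140 to 165 counts. Neither passed the cutoff (adjusted p = 0.652 and 0.327 by edgeR).

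Of 8 transcription factors of the lineage, 5 were lower and 1 higher. *Gata1*, shared with erythroid cells, mast cells and eosinophils, had 6, 8 and 9 counts in TNF-Tg and 69, 41 and 85 in WT lungs (log2 fold change -2.85 ± 0.35 SE, edgeR adjusted p = 0.000399). It lay under the filter level in every TNF-Tg lung (0.262 to 0.281 CPM), so it was tested through the WT lungs. *Nfe2*, which drives the late steps of platelet release, fell too (log2 fold change -0.68, adjusted p = 0.0135), and its call was lost without TNF-Tg replicate 2 and without WT replicate 1. *Gfi1b* had 10 to 26 counts in TNF-Tg and 8 to 33 in WT lungs and did not pass the cutoff (edgeR adjusted p = 0.747). The ETS factor gene *Fli1*, which is expressed in endothelium and leukocytes too, was higher (log2 fold change 1.09, edgeR adjusted p = 0.0013).

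Among ligands and chemokine receptors, 4 of the 9 tested were lower and 4 higher. Thrombopoietin (*Thpo*) stood at 11 to 22 counts in TNF-Tg and 23 to 28 in WT lungs and did not pass the cutoff (log2 fold change -0.32 ± 0.30 SE, edgeR adjusted p = 0.408). Podoplanin (*Pdpn*), the CLEC-2 ligand that alveolar type 1 cells carry, was lower (log2 fold change -0.71, adjusted p = 0.00218). The fibrinogen chain *Fga* had 25, 66 and 63 counts in TNF-Tg and 15, 9 and 11 in WT lungs (log2 fold change 2.29 ± 0.38 SE, edgeR adjusted p = 0.00161). WT replicate 2 lay under the filter level for this gene, which was tested through the TNF-Tg lungs. *Cxcr2*, the neutrophil receptor for the *Ppbp* product, had 48, 23 and 32 counts in TNF-Tg and 142, 192 and 292 in WT lungs (log2 fold change -2.33, edgeR adjusted p = 0.00195).

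**Figure D3:**
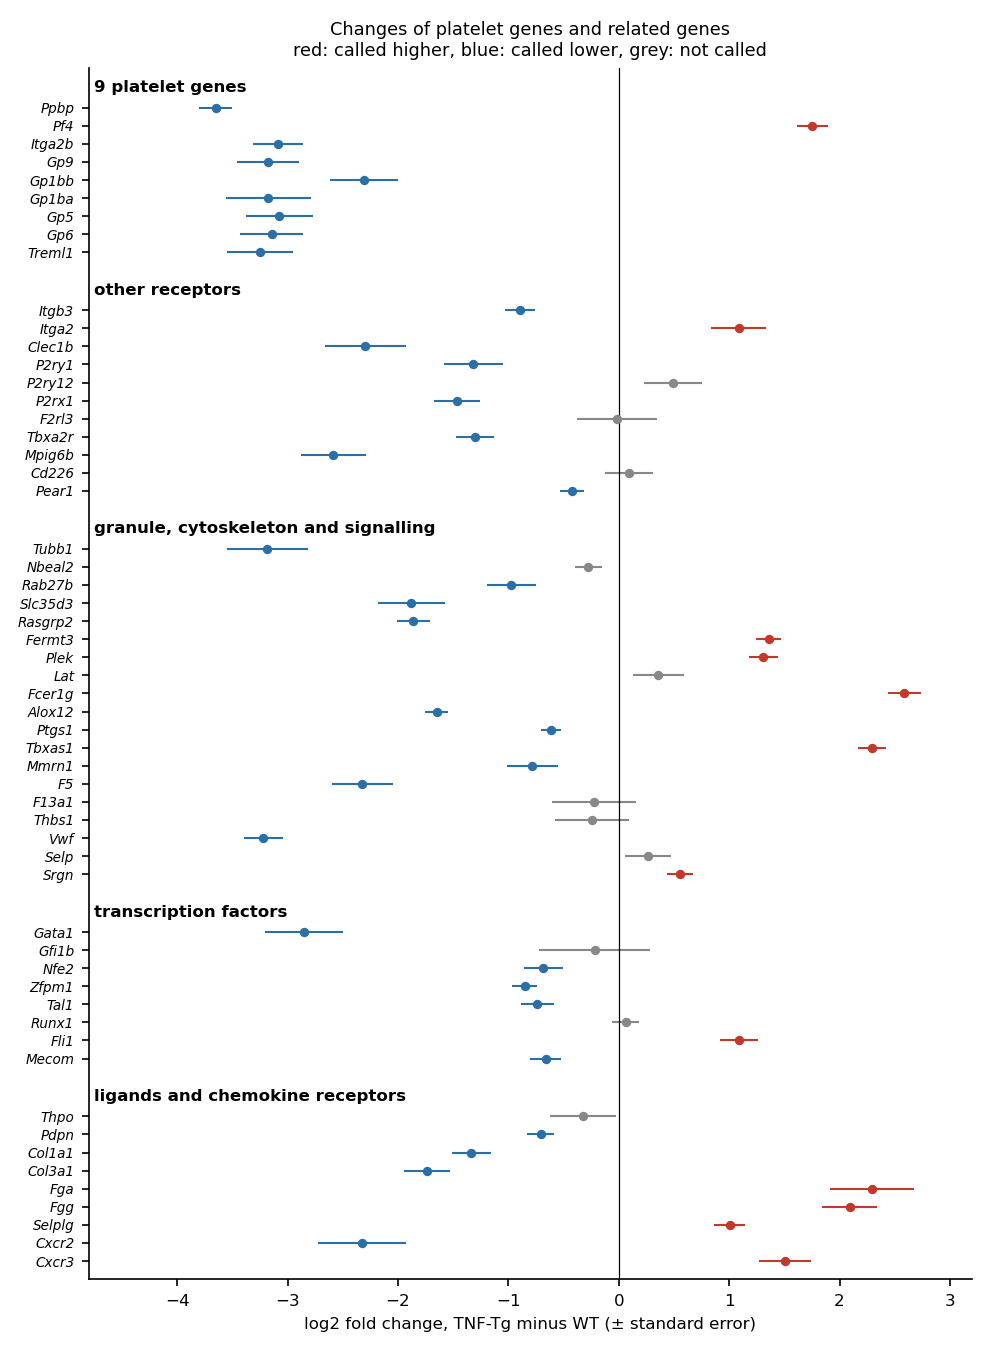
Log2 fold changes (TNF-Tg minus WT) with standard errors from edgeR for the 9 platelet genes and the 47 tested related genes, grouped by list, with genes called higher in red, called lower in blue and not called in grey. *Vwf* (-3.22), *Tubb1* (-3.18) and *Gata1* (-2.85) lie near the 8 lower platelet genes (-3.65 to -2.31), and *Fcer1g* (2.59) lies furthest to the right.

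Most tested markers of other blood and marrow cells were called lower beside the 8 platelet genes, against 23.4% of all genes tested. Of the 8 erythroid genes tested, 7 were lower, and 6 or 7 when 1 lung was left out. Summed levels of the list were 8173 to 11980 CPM in TNF-Tg and 33534 to 61075 CPM in WT lungs. The α globin genes *Hba-a1* and *Hba-a2*, near-identical copies that are uncertain as separate genes, had log2 fold changes of -2.16 and -2.19. All 6 tested genes of immature neutrophils were lower, and 5 or 6 when 1 lung was left out. *Mpo*, *Elane*, *Camp* and *Ngp* did not reach the filter level in all 3 TNF-Tg lungs and were tested through the WT lungs. In *Prtn3* (edgeR adjusted p = 0.0453) the groups overlapped, at 0.376 to 0.742 CPM in TNF-Tg and 0.666 to 1.5 CPM in WT lungs. The list summed to 13.1 to 28.9 CPM in TNF-Tg and 123 to 226 CPM in WT lungs. Most of this sum was *Ltf*, at 12.3 to 27.3 and 103 to 194 CPM. The granule gene *Ltf* had 360 to 626 counts in TNF-Tg and 3245 to 6334 in WT lungs, and *Ngp* had 1 to 15 and 441 to 919 counts. Of 6 genes of mature neutrophils, 4 were lower and 1, *Csf3r*, was higher, and it was called in 2 of 6 fits that left out 1 lung. Only 2 genes were lower without TNF-Tg replicate 2, TNF-Tg replicate 3 or WT replicate 3. The summed levels overlapped between the genotypes (65.5 to 103 CPM in TNF-Tg and 88.8 to 151 CPM in WT lungs). Mast cell and basophil genes were scarce, at 0.262 to 2.44 CPM in sum in TNF-Tg and 5.36 to 7.27 CPM in WT lungs. Of 5 tested genes 4 were lower, and none of the 5 reached the filter level in all 3 TNF-Tg lungs. *Prss34* (13 to 28 counts in WT) and *Tpsab1* (1 to 3 counts in WT, no more than the floor) were at 0 in every TNF-Tg lung. Of the untested genes, *Mcpt8* overlapped (1, 1 and 18 counts in TNF-Tg, 3, 6 and 11 in WT lungs). *Fcer1a* overlapped too, and in *Ms4a2* every TNF-Tg lung was lower. *Cma1*, the mast cell gene with the highest counts in WT lungs, had 2 to 14 counts in TNF-Tg and 53 to 77 in WT lungs.

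Median log2 fold changes were -1.82 for erythroid, -4.55 for immature neutrophil and -1.26 for mature neutrophil genes, and those of lung wall genes lay near the last. Of 8 endothelial genes 7 were lower and 1 higher, where 23.4% of all genes tested were called lower and 24.0% higher. Their median log2 fold change was -1.16, with summed levels of 1756 to 2024 CPM in TNF-Tg and 3478 to 4248 CPM in WT lungs. *Pecam1* changed by -0.56 and *Ptprb* by -2.07 on the log2 scale. Of 8 lung epithelial genes 5 were lower, at a median of -1.14, with -0.52 for *Sftpc* (edgeR adjusted p = 0.0837) and -1.77 for the club cell gene *Scgb1a1*. Squamous and muscle genes were high in WT replicate 1 alone, at 4506 CPM in sum against 12.1 to 26.2 CPM in the other lungs, with 56570 of the counts on *Krt4*. Of the 4 tested, 3 were called lower in TNF-Tg lungs with all 6 lungs, and 2 without WT replicate 1, where the log2 fold change of *Krt5*, the largest of the list, went from -6.54 to -2.16 and that of *Myh4* from -6.38 to 0.61. None of the 4 was called when any 1 TNF-Tg lung was left out. The part of blood content, marrow cells and endothelium in the platelet gene counts was not tested.

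**Figure D4:**
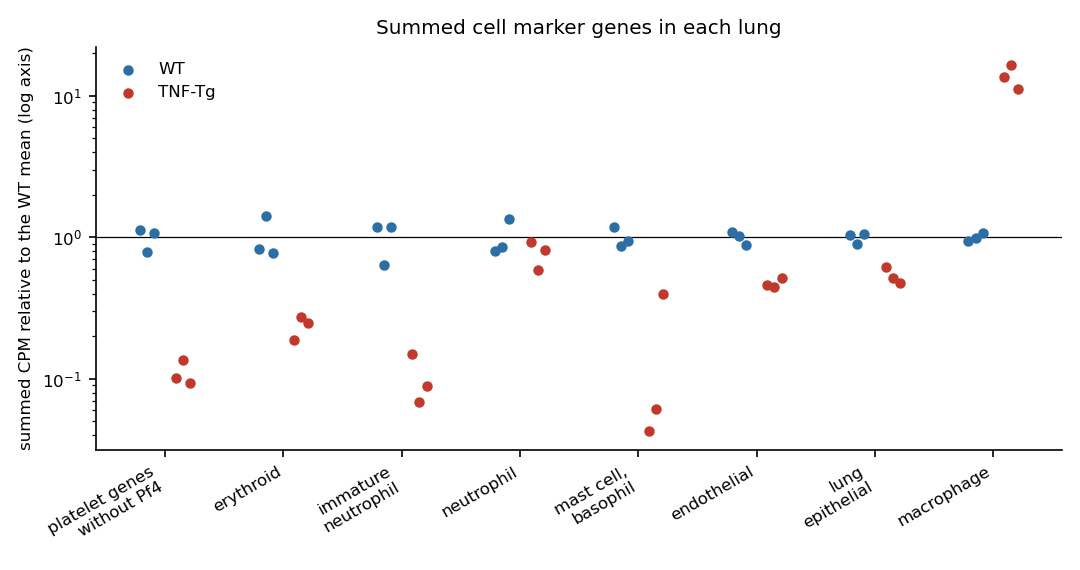
Summed CPM of the 8 platelet genes without *Pf4* and of 7 marker lists in each lung (the squamous and muscle list is not drawn), divided by the mean of the 3 WT lungs (log axis), with 1 point per lung. Of the lists drawn, the 8 platelet genes (16.7 to 24.2 CPM), the immature neutrophil list and 2 of 3 points of the mast cell list lie lowest in TNF-Tg lungs, followed by erythroid genes, and the macrophage list (4756 to 7008 CPM) lies above the WT lungs. The immature neutrophil sum is mostly *Ltf*.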

How the data were processed

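RNA-sequencing of whole lungs from 3 TNF-Tg and 3 WT mice was analysed from the deposited raw counts, in which each value is the reads assigned to a gene symbol in 1 mouse and nothing was normalized. The authors prepared stranded poly(A) libraries (single-end, 100 bases), and the submitters' processing notes name Trimmomatic, STAR (2.5.2b), featureCounts and GRCm38.p5. The strand setting and the annotation of the counting are not given in the sources used here. All 6 columns were matched to mice by genotype and number.

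Counts were tested with edgeR (4.0.16, R 4.3.3) using filterByExpr (minimum count 10), TMM factors and the quasi-likelihood test between genotypes without further terms, and p-values were adjusted over all genes tested (Benjamini-Hochberg, 0.05). The standard error is the size of the log2 fold change divided by the square root of F. Log2 CPM used a prior count of 2. Exon lengths and positions are from GENCODE M21 on GRCm38 (mm10), and promoters from RefSeq on GRCm38.p6. Poisson intervals and the floor of 3 counts cover counting error only. DESeq2 (1.42.0), the tool the study names, and limma-voom (3.58.1) were among the alternatives. The programs were tested on simulated counts. The authors' other assays were not used here.

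Same-numbered mice are different animals, and their deviations from the group means correlated across genes at -0.24 to -0.00429 in the 3 pairs, so the number was not treated as a pairing. The genes and lists were chosen with earlier results of these data known. Named beside the 9 genes were a fixed set of partner genes, the 2 called genes of each related list with the largest change, the 5 genes nearest in profile, and the gene of each marker list with the highest counts and that with the largest change. *Sept5*, *Gm42418*, *Mpig6b*, *Itga2*, *P2ry1*, *P2ry12*, *Tbxas1*, *Fermt3*, *Plek*, *Srgn*, *Cytl1*, *Enho*, *Krt13*, *Mmrn1*, *Myh4* and *Tpsab1* were named after values were seen. So were *Mpo*, *Elane*, *Camp*, *Prtn3*, *Mcpt8*, *Fcer1a* and *Ms4a2*. One item of the related lists is not reported here.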

Additional observations from a re-analysis of the deposited data

How the results depend on the processing

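The 9 platelet genes kept their direction and their side of the cutoff in all 125 values from the alternatives that could be fitted, with adjusted p-values of at most 0.00388. *Gp1ba* could not be tested with at least 10 counts in every lung, which left 8 of the 9 genes called. With the replicate block the 9 genes were called as without it, with adjusted p-values from 0.00025 for *Ppbp* to 0.00335 for *Gp1ba*, 7686 genes were called in all against 9096 without it, and no call of a related gene was lost. DESeq2 gave 9134 calls. Leaving out 1 lung moved all calls between 7347 and 9164, and the log2 fold changes of *Gp1bb* between -2.57 and -1.99, of *Gp1ba* between -3.53 and -2.85 and of *Pf4* between 1.65 and 1.88. The other receptors called higher were 1 to 2 when 1 lung was left out, with 2 without WT replicate 1. Without replicate 1 of both genotypes, an alternative added after the data were seen, the genes called higher were 2689 against 4610 with all 6 lungs. The difference of the log2 sum of the 9 genes, TNF-Tg minus WT, was -1.13 (-1.29 to -1.05 when 1 lung was left out), and -3.18 without *Pf4*. The count of related genes called was 31 without replicate 1 of both genotypes (21 lower and 10 higher) against 36 with all lungs (25 and 11). With 1 lung left out, *Mmrn1* lost its call without TNF-Tg replicate 3, WT replicate 1 or WT replicate 2, and *Nfe2* without TNF-Tg replicate 2 or WT replicate 1. With 6 to 66 counts in TNF-Tg lungs, *Gp1ba*, *Gp1bb*, *Gp9*, *Gp5*, *Gp6* and *Treml1* are limited by depth there.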
